A study of Mus musculus with 10 samples.

Results

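The heat shock chaperones described here are 10 genes, Hspa1a, Hspa1b, Hspa8, Hsph1, Dnajb1, Bag3, Hsp90aa1, Hspb1, Hspd1 and Hspe1. They were taken by gene name from a count table of 54532 mouse genes, of which 31040 had at least 1 count. All 10 passed the filter on low counts and stood among the 17139 genes tested. RNA-seq was made from lung tissue of wild-type mice in 3 groups, LPS+TSLP (4 libraries), LPS (3 libraries) and Vehicle (3 libraries). LPS is lipopolysaccharide, a component of the outer membrane of Gram-negative bacteria, and TSLP is thymic stromal lymphopoietin, a cytokine made by epithelial cells. The series title names recombinant TSLP as given before LPS. LPS+TSLP and LPS mice therefore shared the LPS stimulation, and Vehicle mice had neither agent by their labels. Doses, times, routes, age and sex of the mice are not given in the sources used here. Nothing in the labels says that the libraries of a group came from separate animals, so the p-values measure only the spread between these libraries.

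Cells meet unfolded protein with chaperones of several families. HSP70 proteins (Hspa1a, Hspa1b and the constitutive Hspa8) bind exposed hydrophobic stretches with the help of J-domain partners such as Dnajb1, and nucleotide exchange factors such as Hsph1 and Bag3 release the client. Hsp90aa1 acts later on client kinases and receptors, the small heat shock protein Hspb1 holds unfolded protein in solution, and Hspd1 with its lid Hspe1 folds protein inside mitochondria. Heat, oxidative stress and other injury raise many of these genes through the transcription factor HSF1, which binds inverted repeats of the element GAA ahead of the start site. The inducible genes among them also respond within a short time to the handling of tissue.

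Upstream sequences of 8 of the 10 genes were found in the RefSeq promoter table (GRCm38.p6), and those of Hspa1a, Hspa1b and Hspe1 are shown because the counts of the first pair cannot be fully separated and because the third is also the upstream side of a neighbouring member. Each run holds the 250 bases ahead of the start, written 5′ to 3′ on the gene's own strand, and capitals mark letters that match GAANNTTC or TTCNNGAA, the 2-unit forms of the heat shock element. The windows lie at chr17:34972157-34972406 (- strand), chr17:34959239-34959488 (- strand) and chr1:55087898-55088147 (+ strand).
Hspa1a: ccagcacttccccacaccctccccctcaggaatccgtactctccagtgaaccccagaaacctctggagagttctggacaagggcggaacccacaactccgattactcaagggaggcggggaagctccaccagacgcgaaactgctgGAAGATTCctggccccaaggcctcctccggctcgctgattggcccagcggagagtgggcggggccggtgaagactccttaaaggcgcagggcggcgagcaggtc
Hspa1b: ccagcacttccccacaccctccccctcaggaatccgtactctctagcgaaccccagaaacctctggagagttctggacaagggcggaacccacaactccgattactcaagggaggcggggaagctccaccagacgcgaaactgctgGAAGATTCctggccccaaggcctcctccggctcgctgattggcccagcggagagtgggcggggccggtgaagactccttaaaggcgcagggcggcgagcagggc
Hspe1: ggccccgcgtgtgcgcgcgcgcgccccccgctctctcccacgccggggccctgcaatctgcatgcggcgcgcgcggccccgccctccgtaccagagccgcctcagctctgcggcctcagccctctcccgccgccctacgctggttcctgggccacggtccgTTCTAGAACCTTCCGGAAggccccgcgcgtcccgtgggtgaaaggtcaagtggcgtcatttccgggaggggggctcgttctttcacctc

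Each 2-unit motif is its own reverse complement, so 1 strand covers both. Hspa1a and Hspa1b each held GAAGATTC starting 104 bases ahead of the start. Over the whole 300-base windows, which add 50 transcribed bases, the pair differed at 4 of 300 positions (98.67% identical), namely C44T, T47C, T249G and C276T, with the Hspa1a base first, the Hspa1b base last and positions counted from 1 at the window's 5′ end. Hspe1 held the run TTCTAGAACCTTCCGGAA starting 89 bases ahead of its start, which contains overlapping 2-unit matches. The second annotated window of Hspd1, which is read from the opposite strand, covers the same run. In all, 7 of the 8 members with a sequence had a 2-unit match in at least 1 window, against 15.1% of all 32851 promoters of that length. The 3-unit form, GAANNTTC followed by NNGAA or TTCNNGAA followed by NNTTC, stood in windows of 3 members (Hsph1, Hspd1 and Hspe1) and in 0.603% of all promoters. The members' windows number 11, so a member with several starts had more than 1 chance of a match, and Dnajb1 had none in either of its windows. Of the 11 windows 8 had a 2-unit match, and those of Hspd1 and Hspe1 share the same run. Not every match lay ahead of the start. The only match of Bag3 began at transcribed base 43, and the 3-unit match of Hsph1 at transcribed base 37 or 16, by window. A match describes letters only.

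Library totals lay between 16175172 and 18374461 counts. Levels are given in CPM, counts relative to the library size, with library sizes scaled by the trimmed mean of M values (TMM). The lung epithelial list (14 genes, none at 0 in any library) summed to 27750 to 41261 CPM in LPS+TSLP, 16756 to 42330 CPM in LPS and 27406 to 43880 CPM in Vehicle libraries. These sums hide differences between genes. In LPS+TSLP replicate 1 Sftpc stood at 1755 CPM and Ager at 316 CPM. The other LPS+TSLP libraries had 5961 to 13407 CPM and 1649 to 2488 CPM. Scgb3a2 and Cyp2f2 went the other way, at 1118 and 1345 CPM in that library. The other LPS+TSLP libraries had 98.4 to 122 CPM and 153 to 314 CPM. LPS+TSLP replicate 1 stood apart with 13.1% of its counts in mitochondrially encoded genes, against 1.996% to 6.50% in the other LPS+TSLP libraries, 1.20% to 2.58% in LPS and 1.11% to 1.27% in Vehicle libraries. LPS replicate 1 stood apart in sex-linked genes, with Xist at 189.7 CPM on the unscaled total and Ddx3y and Eif2s3y at 0 counts, whereas Xist reached at most 0.46 CPM in the other libraries. The Vehicle libraries were also low for these Y-linked genes. Ddx3y stood at 57.7 to 96.1 CPM in LPS+TSLP libraries, 70.6 and 89.3 CPM in the other LPS libraries and 6.15 to 11.85 CPM in Vehicle libraries. Eif2s3y stood at 31.6 to 75.9 CPM, 69.7 and 51.3 CPM, and 10.9 to 22.4 CPM in the same libraries. The part of these differences in the results was not tested. Each member's lowest and highest value over the 10 fits that left out 1 library is given beside or after its own value, with the library left out.

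In TPM, counts scaled for exon length and library total, the members spanned a wide range of levels. Hspa8, the constitutive cytosolic HSP70, was the highest with a mean level of 956 ± 83.2 TPM in LPS+TSLP, 1046 ± 246 TPM in LPS and 1043 ± 316 TPM in Vehicle libraries (SD, n = 4, 3 and 3). Hspb1 came next in every group, at 429 ± 122 TPM, 438 ± 63.0 TPM and 387 ± 113 TPM in the same groups, and its libraries did not overlap those of Hspa8 within any group. The inducible pair was at the low end, with Hspa1a at 12.9 ± 6.58 TPM in LPS+TSLP, 8.21 ± 3.41 TPM in LPS and 15.8 ± 7.03 TPM in Vehicle libraries. Hspa1b stood at 20.6 ± 13.6 TPM, 15.1 ± 12.5 TPM and 27.8 ± 16.5 TPM in those groups, which does not separate it from Hspa1a beyond the spread. The middle of the order depended on the group. In LPS libraries Hsp90aa1 (286 ± 107 TPM), Hspe1 (190 ± 51.8 TPM) and Hspd1 (151 ± 32.0 TPM) stood above Bag3 (76.2 ± 18.4 TPM), while in Vehicle libraries Bag3 (115 ± 7.37 TPM), Hsp90aa1 (111 ± 64.3 TPM) and Hspd1 (110 ± 27.05 TPM) lay within each other's spread. Some 50-base stretches of these genes also occur in other annotated genes. The shares were 60.3% for Hspa1a, 62.3% for Hspa1b, 47.5% for Hsp90aa1, 48.8% for Hspb1, 39.7% for Hspd1, 38.6% for Hspa8 and 18.4% for Hspe1. Dnajb1 had 0.38%, and Hsph1 and Bag3 had none. How such reads were counted is not given in the sources used here, so the order of levels between genes is uncertain to that extent.

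**Figure D1:**
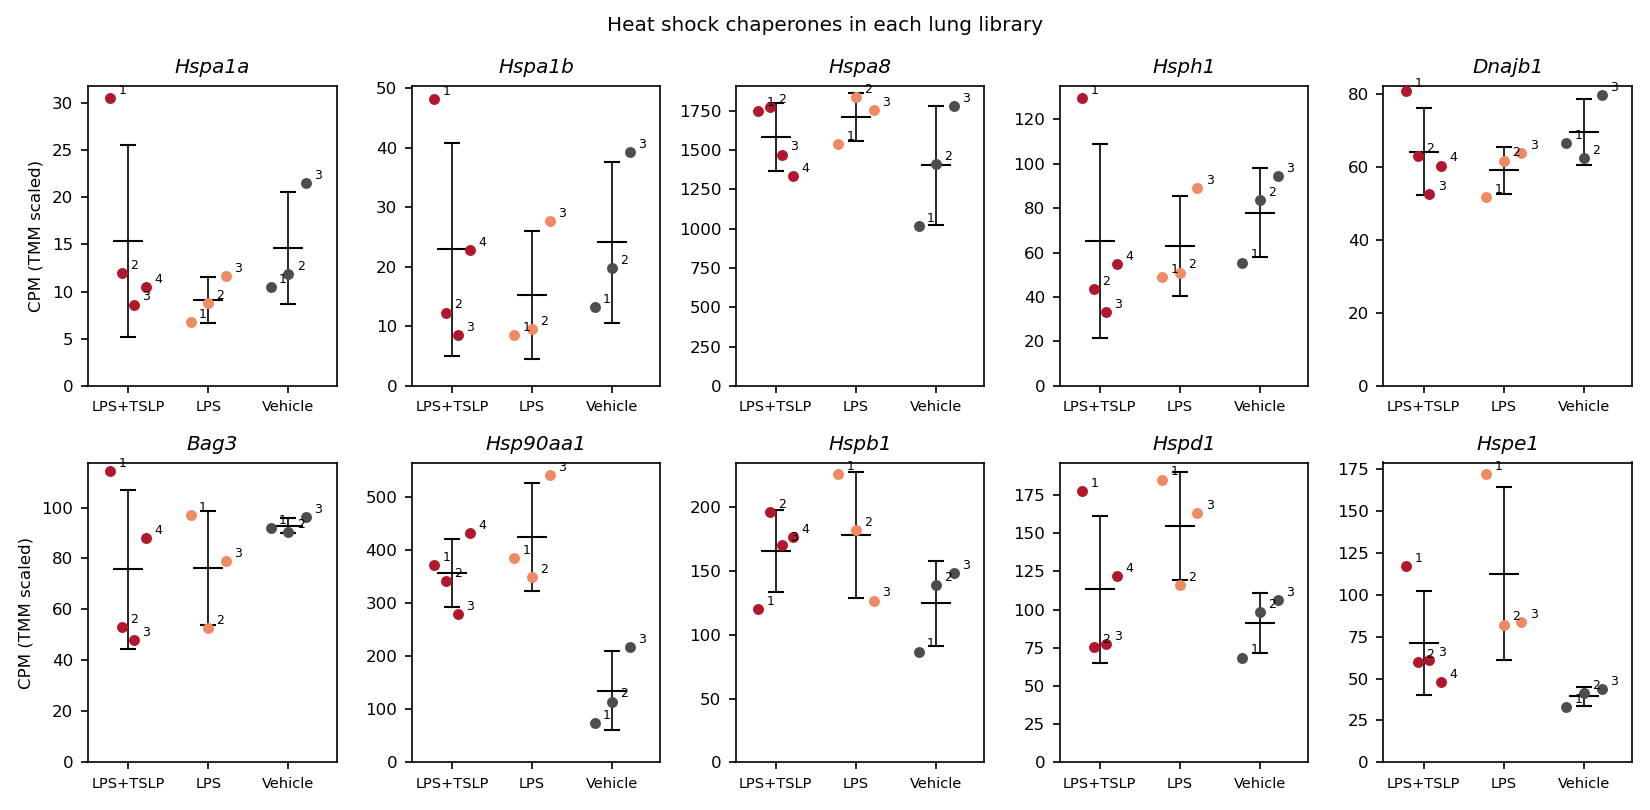
CPM (TMM-scaled, linear axis starting at 0) of each of the 10 heat shock chaperones, 1 panel a gene, in LPS+TSLP, LPS and Vehicle libraries; points are libraries numbered by replicate, and the bar with whiskers is the mean ± SD (n = 4, 3 and 3). Hsp90aa1 and Hspe1 are higher in every LPS library than in any Vehicle library, while LPS+TSLP replicate 1 and Vehicle replicate 3 are the high points of Hspa1a and Hspa1b.

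LPS against Vehicle asks which chaperones differ in lungs exposed to LPS. Hsp90aa1, the inducible cytosolic HSP90, and Hspe1, the lid of the mitochondrial chaperonin, rose 3.14-fold and 2.86-fold, and the inducible HSP70 genes did not pass the test. Of the 10 members, 2 were called and both were higher, where 24.9% of all 17139 tested genes were called (14.2% higher and 10.7% lower), so the members' share is near the background. At an unadjusted p under 0.05 there were 3 members of 10, against 39.6% of all tested genes. The median log2 fold change was 0.03 over the members and 0.01 over all tested genes.

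Hsp90aa1 (ENSMUSG00000021270) is annotated at chr12:110690605-110702728 on the - strand and Hspe1 (ENSMUSG00000073676) at chr1:55088132-55091307 on the + strand (GRCm38, GENCODE M21). Hsp90aa1 measured 385, 349 and 541 CPM in LPS libraries, against 74.0, 115 and 217 CPM in Vehicle libraries. Every LPS library was above every Vehicle library, and the Vehicle libraries differed among themselves by 2.94-fold. The log2 fold change was 1.65 (SE 0.36, 3.14-fold, 95% interval 0.86 to 2.44, adjusted p = 0.0101 by edgeR's quasi-likelihood test). The call held in each of the 10 fits that left out 1 library, with log2 fold changes of 1.36 (without Vehicle replicate 1) to 2.18 (without Vehicle replicate 3) and adjusted p of at most 0.0468. Some 47.5% of the gene's 50-base stretches also occur in other annotated genes, chiefly Gm12346 (41.8%), so part of its reads may have been lost or shared at counting.

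Hspe1, the co-chaperonin that closes the mitochondrial folding chamber, measured 172, 82.2 and 83.8 CPM in LPS libraries, against 33.0, 41.5 and 43.6 CPM in Vehicle libraries. LPS replicate 1 was the highest of the LPS libraries, and no LPS library overlapped a Vehicle library. The log2 fold change was 1.52 (SE 0.37, 2.86-fold, adjusted p = 0.0147, edgeR). Without LPS replicate 1 it was 1.08 with an adjusted p of 0.0710, without Vehicle replicate 1 it was 1.42 with 0.0746, and without Vehicle replicate 2 it was 1.56 with 0.0578 (edgeR). The call of Hspe1 therefore depends on each of these libraries, while its direction was the same in all of those fits, where the highest value was 1.73 (without LPS replicate 3).

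Hspd1, the chaperonin that works with Hspe1, measured 185, 116 and 163 CPM in LPS libraries, against 68.6, 98.6 and 106 CPM in Vehicle libraries. The groups did not overlap, as in 49.8% of all tested genes, and the value of 0.76 on the log2 scale (SE 0.33) had an adjusted p of 0.113 (edgeR). It passed the threshold in a fit of the 2 groups alone (adjusted p = 0.0423) and without LPS+TSLP replicate 1 (adjusted p = 0.0376). With 1 library left out its values were 0.61 (without Vehicle replicate 1) to 0.94 (without LPS replicate 2). Hspd1 and Hspe1 lie head to head on chromosome 1 and their annotated exons overlap by 112 bases. Strand use in counting is not given in the sources used here, so reads of that overlap cannot be assigned between the 2 genes.

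Hspb1, which keeps unfolded protein soluble and also binds actin, measured 226, 182 and 127 CPM in LPS libraries, against 86.9, 139 and 149 CPM in Vehicle libraries. The groups overlapped, and its log2 fold change was 0.51 (SE 0.28, adjusted p = 0.195, edgeR). With each library's trend with gene GC content removed, the value was 0.84 with an adjusted p of 0.0483. It was 0.31 without LPS replicate 1 and 0.74 without LPS replicate 3. Hspa8 measured 1539, 1837 and 1755 CPM in LPS libraries, against 1018, 1410 and 1776 CPM in Vehicle libraries, which gave 0.29 on the log2 scale (SE 0.25, adjusted p = 0.419, edgeR). The groups overlapped only through Vehicle replicate 3, and the value was 0.11 without Vehicle replicate 1 and 0.50 without Vehicle replicate 3.

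The stress-inducible HSP70 genes, Hspa1a at chr17:34969190-34972156 and Hspa1b at chr17:34956436-34959238 on the - strand, gave negative values with wide errors. Hspa1a measured 6.76, 8.81 and 11.7 CPM in LPS libraries, against 10.5, 11.8 and 21.5 CPM in Vehicle libraries. Its log2 fold change was -0.68 (SE 0.47, 95% interval -1.72 to 0.35, adjusted p = 0.301, edgeR). Hspa1b, its near copy, measured 8.59, 9.49 and 27.8 CPM in LPS libraries, against 13.3, 19.7 and 39.4 CPM in Vehicle libraries, a log2 fold change of -0.66 (SE 0.66, 95% interval -2.10 to 0.78, adjusted p = 0.481, edgeR). The groups overlapped for both genes. Both values were nearest to 0 without Vehicle replicate 3, at -0.30 for Hspa1a and -0.11 for Hspa1b, and farthest from it without LPS replicate 3, at -0.88 and -1.39. Without LPS replicate 1 Hspa1b had -0.38 and without LPS replicate 2 -0.41. Of the 50-base stretches of Hspa1a 58.8% occur in Hspa1b, and of those of Hspa1b 62.3% occur in Hspa1a. How their reads were divided, and whether some were lost at counting, is therefore uncertain. The ratio of Hspa1b to Hspa1a counts lay between 0.99 and 2.38 over the 10 libraries. Hspa1a also overlaps the antisense-strand gene Gm20481 over 564 exonic bases.

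The partners of HSP70 were likewise not called. Hsph1, an exchange factor of the HSP110 family, measured 48.8, 51.0 and 89.0 CPM in LPS libraries, against 55.6, 83.8 and 94.4 CPM in Vehicle libraries (log2 fold change -0.31, SE 0.45, adjusted p = 0.646, edgeR). Dnajb1, the J-domain protein that delivers clients to HSP70, measured 51.8, 61.7 and 63.8 CPM in LPS libraries, against 66.5, 62.4 and 79.7 CPM in Vehicle libraries (log2 fold change -0.23, SE 0.20, adjusted p = 0.403, edgeR). Bag3, an exchange factor that also routes clients to autophagy, measured 97.2, 52.6 and 79.0 CPM in LPS libraries, against 91.9, 90.4 and 96.2 CPM in Vehicle libraries (log2 fold change -0.28, SE 0.33, adjusted p = 0.546, edgeR). The groups overlapped in each of these genes, and a missed threshold does not show that the levels were alike. With 1 library left out Hsph1 had -0.61 (without LPS replicate 3) to -0.14 (without Vehicle replicate 3). Dnajb1 had -0.31 (without Vehicle replicate 2) to -0.12 (without Vehicle replicate 3). Bag3 had -0.50 (without LPS replicate 1) to -0.075 (without LPS replicate 2).

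Cell type markers were read in the same comparison, where 24.9% of all tested genes were called (14.2% higher and 10.7% lower). Of 20 neutrophil markers 5 rose, and their summed level was 2246 to 3191 CPM in LPS libraries, against 629 to 1907 CPM in Vehicle libraries. Of 16 stromal markers 8 fell (2201 to 3589 CPM summed in LPS, against 5674 to 8197 CPM in Vehicle libraries), and of 12 endothelial markers 5 fell (4491 to 4764 CPM in LPS, against 5618 to 7785 CPM in Vehicle libraries). No marker of these lists was at 0 in any library. Of 16 macrophage and monocyte markers 2 rose and 1 fell, of 14 epithelial markers 1 rose, and of 14 lymphocyte markers none was called. Of 13 mitochondrially encoded genes 4 rose, and of 11 tested muscle markers 1 fell. With 1 library left out, the neutrophil count was 2 without Vehicle replicate 1, Vehicle replicate 2 or LPS replicate 1, 3 without LPS replicate 2, LPS replicate 3 or LPS+TSLP replicate 2, and 10 without LPS+TSLP replicate 1. The endothelial count was 1 without Vehicle replicate 1 or 2 and 3 without LPS replicate 1, with 6 as its highest, and the stromal count was 6 to 9. Their part in the results was not tested, and in bulk tissue fewer cells of a type and less RNA per cell cannot be told apart.

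**Figure D2:**
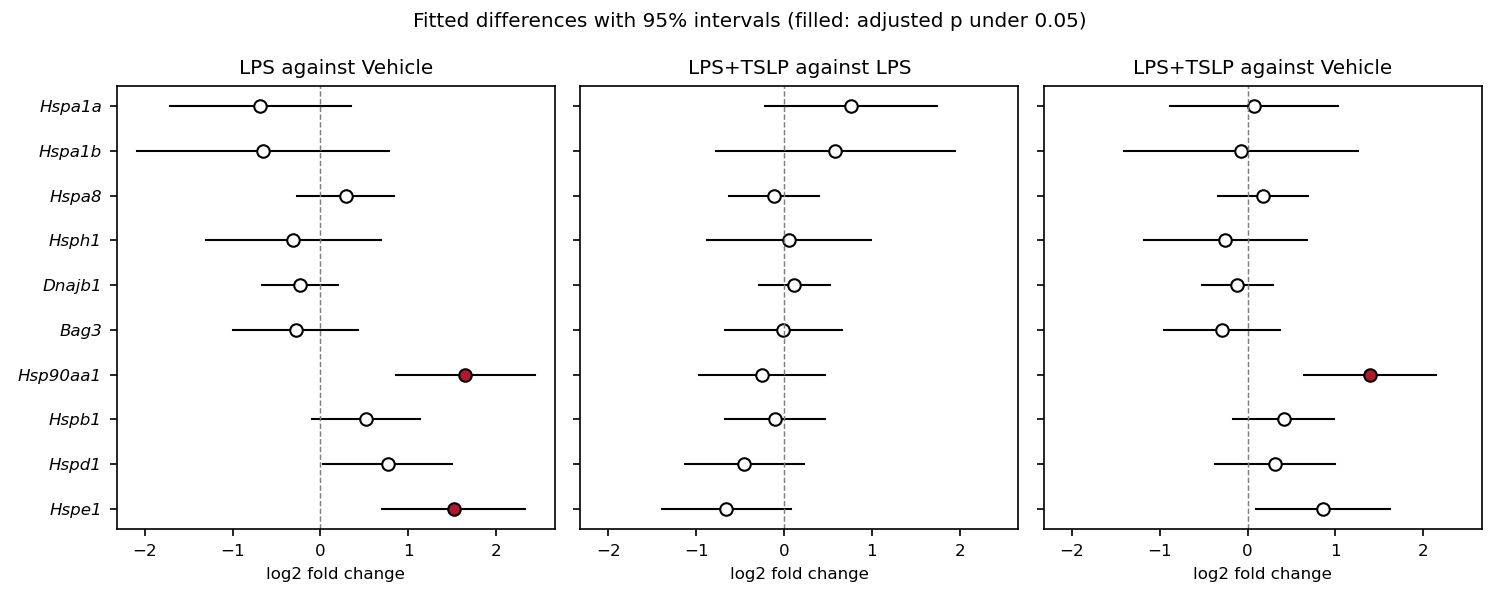
Fitted log2 fold change of each member with 95% intervals, in LPS against Vehicle at left, LPS+TSLP against LPS in the middle and LPS+TSLP against Vehicle at right; filled points had an adjusted p under 0.05 (edgeR). Hsp90aa1 is filled in both comparisons with Vehicle and Hspe1 in LPS against Vehicle, while no point is filled in LPS+TSLP against LPS.

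LPS+TSLP against LPS asks what the TSLP given before LPS changed. No heat shock chaperone was called, and the libraries of the groups overlapped for every member, where 7.42% of all tested genes had groups that did not overlap (3.88% above and 3.54% below). At an unadjusted p under 0.05 the count of members was 0, and DESeq2 and limma-voom each called 0 members. Over all tested genes edgeR called 0% (0 of 17139), with 1388 genes (8.1%) at an unadjusted p under 0.05, and DESeq2 called 35 and limma-voom 0. The median log2 fold change was -0.06 over the members and 0.02 over all tested genes. List medians were -1.22 for neutrophil markers, 1.70 for mitochondrially encoded genes and 1.03 for muscle markers. Muscle markers summed to 738, 58.9, 202 and 77.7 CPM in LPS+TSLP, against 67.8, 42.0 and 281 CPM in LPS libraries. Only LPS+TSLP replicate 1 was above the LPS range. Mitochondrially encoded genes held 13.1%, 6.50%, 5.35% and 1.996% of counts in LPS+TSLP, against 1.20%, 2.58% and 2.29% in LPS libraries. There LPS+TSLP replicate 4 lay within the LPS range. The other marker lists had medians between -0.42 (lymphocyte) and 0.54 (stromal). Neutrophil markers summed to 895 to 2012 CPM in LPS+TSLP, against 2246 to 3191 CPM in LPS libraries. These sums also hide differences between genes. In LPS+TSLP replicate 1 Ltf made up 437 of the 895 CPM, while S100a8 stood at 23.4 CPM and S100a9 at 31.9 CPM. The other LPS+TSLP libraries had 33.3 to 35.2 CPM of Ltf, 211 to 293 CPM of S100a8 and 208 to 349 CPM of S100a9. The part of these differences in the member values was not tested.

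Hspe1 came nearest to the threshold, at 117, 59.9, 60.8 and 48.0 CPM in LPS+TSLP libraries, against 172, 82.2 and 83.8 CPM in LPS libraries. Only LPS+TSLP replicate 1 reached into the LPS range, and the log2 fold change was -0.66 (SE 0.34, 95% interval -1.39 to 0.08, adjusted p = 0.650, edgeR). The value depended on single libraries, with -0.18 (adjusted p = 0.949) without LPS replicate 1 and -1.02 (adjusted p = 0.493) without LPS+TSLP replicate 1. Hspd1 measured 177, 75.6, 77.5 and 122 CPM in LPS+TSLP libraries, against 185, 116 and 163 CPM in LPS libraries (log2 fold change -0.45, SE 0.31, adjusted p = 0.749, edgeR). Here LPS+TSLP replicates 1 and 4 lay within the LPS range, and the value was -0.28 without LPS replicate 1 and -0.78 without LPS+TSLP replicate 1. Hsp90aa1 measured 372, 341, 279 and 433 CPM in LPS+TSLP libraries, against 385, 349 and 541 CPM in LPS libraries (log2 fold change -0.25, SE 0.33, 95% interval -0.97 to 0.47, adjusted p = 0.876, edgeR), which was -0.38 without LPS replicate 2 and -0.061 without LPS replicate 3.

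The inducible pair had positive values that depended on LPS+TSLP replicate 1. Hspa1a measured 30.5, 11.97, 8.61 and 10.5 CPM in LPS+TSLP libraries, against 6.76, 8.81 and 11.7 CPM in LPS libraries. LPS+TSLP replicate 1 was far above the other libraries of its group, and the rest overlapped the LPS libraries. The log2 fold change of Hspa1a was 0.76 (SE 0.45, adjusted p = 0.704, edgeR), with 0.17 without LPS+TSLP replicate 1 and 0.98 without LPS replicate 3. Hspa1b measured 48.2, 12.3, 8.50 and 22.8 CPM in LPS+TSLP libraries, against 8.59, 9.49 and 27.8 CPM in LPS libraries. Its log2 fold change was 0.58 (SE 0.62, adjusted p = 0.834, edgeR), with -0.10 without LPS+TSLP replicate 1 and 1.34 without LPS replicate 3.

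Hsph1 had the same high library, with 130, 43.5, 33.4 and 54.9 CPM in LPS+TSLP libraries, against 48.8, 51.0 and 89.0 CPM in LPS libraries. Its value of 0.05 on the log2 scale (SE 0.43, adjusted p = 0.984, edgeR) became -0.54 without LPS+TSLP replicate 1 and 0.38 without LPS replicate 3. Bag3 measured 114, 53.1, 48.0 and 88.0 CPM in LPS+TSLP libraries, against 97.2, 52.6 and 79.0 CPM in LPS libraries (log2 fold change -0.01, adjusted p = 0.997, edgeR), and the groups overlapped. It had -0.31 without LPS+TSLP replicate 1 and 0.23 without LPS replicate 1. The values of Dnajb1 (80.7, 63.0, 52.5 and 60.3 CPM in LPS+TSLP libraries), of Hspa8 (1750, 1775, 1471 and 1334 CPM) and of Hspb1 (120, 197, 170 and 177 CPM) all overlapped their LPS values, with log2 fold changes of 0.12, -0.11 and -0.10. With 1 library left out Dnajb1 had -0.030 (without LPS+TSLP replicate 1) to 0.20 (without LPS+TSLP replicate 3). Hspa8 had -0.18 (without LPS+TSLP replicate 1) to -0.016 (without LPS+TSLP replicate 4). Hspb1 had -0.32 (without LPS replicate 3) to 0.11 (without LPS replicate 1). Among the 10 members 4 had positive values with all libraries, and 2 without LPS+TSLP replicate 1.

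LPS+TSLP against Vehicle uses the same Vehicle libraries as the first comparison and the same LPS+TSLP libraries as the second, so the 3 sets of values are not independent. Hsp90aa1 was called, at 372, 341, 279 and 433 CPM in LPS+TSLP libraries, against 74.0, 115 and 217 CPM in Vehicle libraries. The groups did not overlap, and the log2 fold change was 1.40 (SE 0.34, 2.63-fold, adjusted p = 0.0236, edgeR). It missed the threshold without Vehicle replicate 1 (1.09, adjusted p = 0.0935), without Vehicle replicate 2 (1.27, adjusted p = 0.104) and without LPS+TSLP replicate 2 (1.42, adjusted p = 0.0528), and its highest value was 1.92 without Vehicle replicate 3. This was 1 member of 10, higher, where 14.2% of all tested genes were called (8.82% higher and 5.35% lower). The median log2 fold change was 0.13 over the members and 0.03 over all tested genes.

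Hspe1 was not called in this comparison. It measured 117, 59.9, 60.8 and 48.0 CPM in LPS+TSLP libraries, against 33.0, 41.5 and 43.6 CPM in Vehicle libraries, with no overlap, as in 31.7% of all tested genes, and its log2 fold change was 0.86 (SE 0.35, adjusted p = 0.111, edgeR). Without LPS+TSLP replicate 1 the value was 0.51 (adjusted p = 0.226, edgeR), and without LPS+TSLP replicate 4 it was 1.05. The remaining 8 members had log2 fold changes between -0.29 (Bag3) and 0.41 (Hspb1) and adjusted p of 0.302 or more. Those of the inducible pair were 0.07 for Hspa1a and -0.07 for Hspa1b, and without LPS+TSLP replicate 1 they were -0.50 and -0.75, against 0.48 and 0.49 without Vehicle replicate 3. Without LPS+TSLP replicate 1 Hsph1 (-0.25 with all libraries) had -0.84, Bag3 -0.58, Dnajb1 -0.25 and Hspd1 -0.0028. The highest values were -0.034 for Hsph1 and -0.12 for Bag3 (without LPS+TSLP replicate 3), 0.47 for Hspd1 (without LPS+TSLP replicate 2) and -0.0053 for Dnajb1 (without Vehicle replicate 3). Hspa8 and Hspb1 had -0.0090 and 0.20 without Vehicle replicate 1 and 0.39 and 0.55 without Vehicle replicate 3.

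In the same comparison, where 14.2% of all tested genes were called, all 13 mitochondrially encoded genes rose. Of 12 endothelial markers 2 fell, and of 16 stromal markers 2 fell. None of 20 neutrophil markers was called (895 to 2012 CPM summed in LPS+TSLP, against 629 to 1907 CPM in Vehicle libraries). The mitochondrial count was 5 without Vehicle replicate 1, 8 without Vehicle replicate 2 and 11 to 13 without any other library. The endothelial count was 0 and the stromal count 1 without any of Vehicle replicates 1 and 2 and LPS+TSLP replicates 2 and 3. Both were 4 without LPS+TSLP replicate 4, and without LPS replicate 1 they were 3 and 5. The neutrophil count was 2 without Vehicle replicate 3. Their part in the member values was not tested.

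The spread of the members within groups followed particular libraries. Vehicle replicate 3 was the highest Vehicle library for all 10 members, and Vehicle replicate 1 was the lowest Vehicle library for 8. How many of all tested genes had that order was not counted. Neutrophil markers shared it, with a mean log2(CPM + 1) of 3.86, 4.72 and 5.20 in Vehicle replicates 1, 2 and 3. So did endoplasmic reticulum chaperones (7.08, 7.74 and 7.85). Epithelial (9.64, 9.37 and 9.21) and endothelial markers (8.79, 8.83 and 8.41) were lowest in Vehicle replicate 3. LPS+TSLP replicate 1 was the highest library of its group for 7 members and the highest of all 10 libraries for 5, and LPS+TSLP replicate 3 was the lowest of its group for 6. LPS replicate 1 was the highest LPS library for 4 members and the lowest for 5. Summed over the 10 members, the level was 2941, 2632, 2209 and 2350 CPM in LPS+TSLP, 2719, 2750 and 2940 CPM in LPS, and 1518, 2072 and 2623 CPM in Vehicle libraries. Hspa8 contributes most of each sum.

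Immediate early genes, which tissue handling also induces, were set beside the inducible pair. Some of them rose in LPS against Vehicle, as given below, so their mean is no measure of handling alone. The summed level of Hspa1a and Hspa1b was 78.7, 24.3, 17.1 and 33.3 CPM in LPS+TSLP, 15.4, 18.3 and 39.4 CPM in LPS, and 23.8, 31.6 and 60.8 CPM in Vehicle libraries. The mean log2(CPM + 1) of 27 immediate early genes was 6.53, 6.25, 6.87 and 6.59 in LPS+TSLP, 6.67, 6.47 and 6.74 in LPS, and 6.11, 5.92 and 6.28 in Vehicle libraries. LPS+TSLP replicate 3 was the highest of all libraries for the immediate early mean and the lowest of its group for the pair. LPS+TSLP replicate 1, the highest for the pair, was the third of its group for that mean. Within LPS and within Vehicle, replicate 3 was highest for both.

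Fos, the immediate early gene most used as a sign of recent stimulation, measured 254, 113, 180 and 154 CPM in LPS+TSLP, 97.3, 64.6 and 125 CPM in LPS, and 258, 84.5 and 119 CPM in Vehicle libraries. LPS+TSLP replicate 1 was the highest of its group for Fos, as for the pair. Vehicle replicate 1 was also the highest of its group for Fos and was the lowest of its group for the pair. In LPS against Vehicle 5 of the 27 immediate early genes rose and 1 fell, with a list median of 0.50, where 24.9% of all tested genes were called. Those that rose include Klf6 (log2 fold change 1.90, SE 0.30, adjusted p = 0.00303), Gadd45b (1.79), Gadd45g (1.96) and Ier3 (1.54), all by edgeR. The gene that fell was Fosb (-2.17, adjusted p = 0.0354), named in this comparison after its value was seen. It measured 1.46, 2.598 and 3.22 CPM in LPS libraries, against 22.2, 6.57 and 4.15 CPM in Vehicle libraries, so Vehicle replicate 1 held most of its Vehicle level. No immediate early gene was called lower without Vehicle replicate 1 (3 higher), by limma-voom (6 higher) or with the GC trend removed (10 higher). In LPS+TSLP against Vehicle, where 14.2% of all tested genes were called, 4 of the 27 rose and none fell, with a list median of 0.32. They were Klf6 (1.51), Gadd45b (1.37), Nr4a2 (0.97) and Gadd45g (1.35). That count was 0 without Vehicle replicate 1 or 2, 2 without LPS+TSLP replicate 2 or 3 and 6 without LPS+TSLP replicate 1, and DESeq2 called 7. None of the 27 passed in LPS+TSLP against LPS, by edgeR, DESeq2 or limma-voom, and 2 had an unadjusted p under 0.05. The smallest adjusted p there were those of Fosb (1.60, adjusted p = 0.591), Ier3 (-0.80, adjusted p = 0.614), Fos (0.87, adjusted p = 0.616) and Myc (-0.64, adjusted p = 0.648), by edgeR. The part of handling in the chaperone values was not tested.

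**Figure D3:**
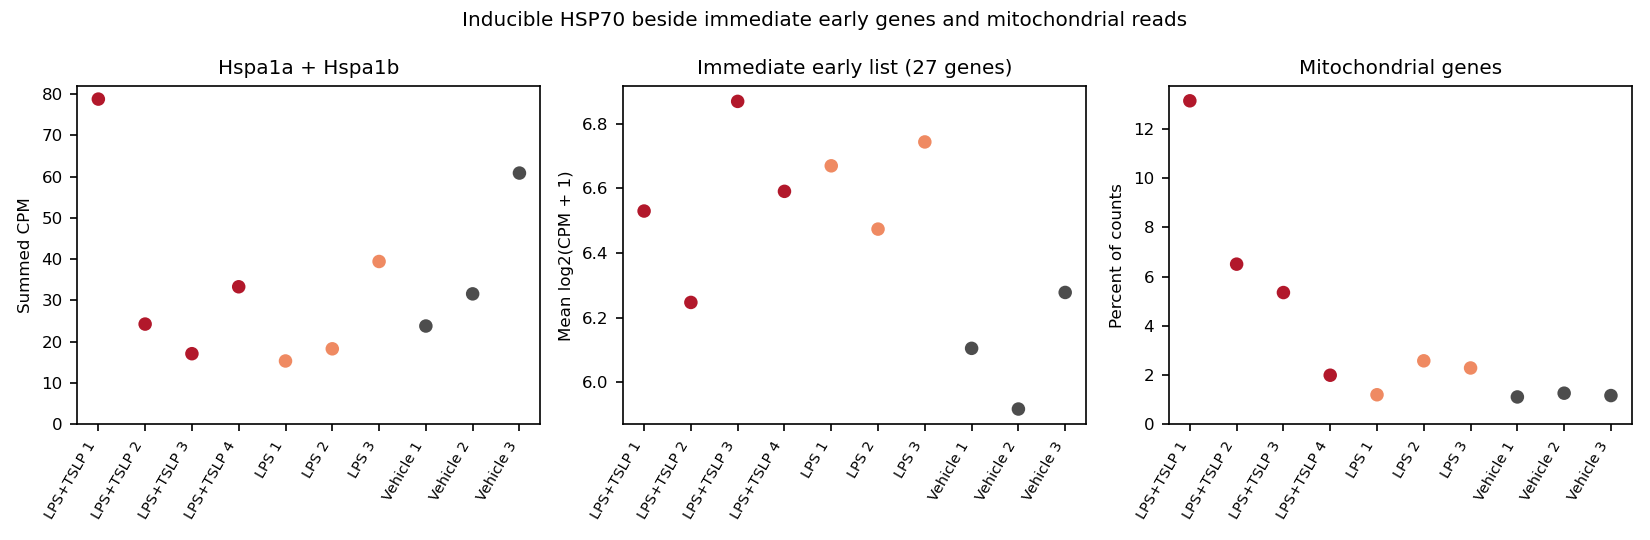
Each library in LPS+TSLP, LPS and Vehicle order, with the summed CPM of Hspa1a and Hspa1b (left), the mean log2(CPM + 1) of 27 immediate early genes (middle, axis not starting at 0) and the percent of counts in mitochondrially encoded genes (right). LPS+TSLP replicate 1 is highest at left (78.7 CPM) and at right (13.1%), whereas LPS+TSLP replicate 3 is highest in the middle (6.87).

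By profile over the 10 libraries, the member nearest to the summed pair was Hsph1, with a root mean square difference of 0.34 in centred log2 CPM. Dnajb1 (0.57) and Bag3 (0.59) followed, then Hspa8 (0.71) and Hspd1 (0.75), and Hspb1 (0.98), Hspe1 (1.07) and Hsp90aa1 (1.09) were farther away than the median of all compared genes (0.87). Among 15208 other genes of at least 1 CPM on average, the nearest were Kcnrg (0.31), Kif2c (0.35), Plxnb3 (0.35), Cep128 (0.35), Dtl (0.38), Cdca5 (0.38), 4930412C18Rik (0.38) and Tpx2 (0.39). Kif2c is a mitotic kinesin, and Dtl, Cdca5 and Tpx2 act in replication, cohesion and the spindle. A function shared by the 8 genes was not tested. Their levels were low, with group means from 0.97 CPM (Plxnb3 in LPS) to 11.2 CPM (Tpx2 in Vehicle). These distances cover 10 libraries and are descriptions.

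Hsf1, which encodes the heat shock factor, was not called in any of the comparisons. It measured 35.6, 48.9, 49.2 and 39.5 CPM in LPS+TSLP, 31.6, 47.0 and 37.8 CPM in LPS, and 44.1, 46.1 and 39.5 CPM in Vehicle libraries, with all groups overlapping. Its log2 fold change in LPS against Vehicle was -0.15 (SE 0.20, adjusted p = 0.601, edgeR), and it was 0.09 with the GC trend removed. RNA levels of HSF1 say nothing of its activity, which is set largely after translation. Of the 7 tested genes of the factor's family and its regulators 1 rose, the deacetylase Sirt1 (log2 fold change 1.36, adjusted p = 0.00316, edgeR). Sirt1 had 0.56 with the GC trend removed (adjusted p = 0.0403), and with the replicate block added its call was lost (0.56, adjusted p = 0.0644).

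Other chaperones were read from lists by compartment in LPS against Vehicle. Over the 7 chaperone and regulator lists 20 of the 101 tested genes rose and 1 fell. That is 20.8% in either direction, against 24.9% of all tested genes (14.2% higher and 10.7% lower). The share in either direction is near the background, but the calls in the lists were nearly all higher. With the GC trend removed the shares were 16.8% and 19.9%, with 16 higher and 1 lower in the lists. Of 18 other inducible co-chaperones 3 rose and none fell, with a median log2 fold change of 0.29. These were Cacybp (1.61, adjusted p = 0.00316), an adaptor of ubiquitin ligases, Chordc1 (1.47, adjusted p = 0.00514), a partner of HSP90, and Dnaja1 (0.80, adjusted p = 0.0439), a J-domain protein, by edgeR. With the GC trend removed Cacybp kept its call (0.86, adjusted p = 0.0385), while Chordc1 had 0.00 and Dnaja1 0.07.

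Of 25 further cytosolic co-chaperones 4 rose and 1 fell (median 0.14). Dnajc2, a ribosome-bound J-domain protein, measured 40.6, 47.0 and 44.8 CPM in LPS libraries, against 6.52, 10.4 and 15.0 CPM in Vehicle libraries. That gave a log2 fold change of 2.05 (adjusted p = 0.00196, edgeR), and 1.70 with the GC trend removed. The HSP90 partners Ppid (1.41) and Fkbp5 (1.84) and the J-domain protein Dnajc7 (1.05) rose as well. Ppid had 0.56 with the GC trend removed and lost its call (adjusted p = 0.0644), while Fkbp5 (2.02) and Dnajc7 (1.15) kept theirs. Bag6, a chaperone for tail-anchored proteins, fell by 0.74 on the log2 scale (adjusted p = 0.0174, edgeR) and was named after its value was seen. In the fit without the GC trend 3 of the 25 were called, all higher, so this call was lost too.

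Of 14 subunits of TRiC and prefoldin, the complexes that fold actin and tubulin, 7 rose and none fell, with a median of 0.66. Over all tested genes 14.2% were called higher and 10.7% lower. The 4 with the smallest adjusted p were the prefoldin subunits Vbp1 (1.33, adjusted p = 0.00248), Pfdn4 (1.57), Pfdn1 (1.36) and Pfdn2 (1.30). With the GC trend removed 4 of the 14 were called, Pfdn1 had 1.58 and Pfdn2 1.40, Pfdn4 lost its call (0.82, adjusted p = 0.117) and Vbp1 turned to -0.27. Of 15 other mitochondrial chaperones and proteases 3 rose, the J-domain proteins Dnajc19 (1.32) and Dnajc15 (0.83) and the protease Yme1l1 (1.28), which is no chaperone. None of these kept its call with the GC trend removed, and Yme1l1 turned to -0.30.

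Of 14 chaperones of the endoplasmic reticulum 2 rose (median 0.51). Hsp90b1, the HSP90 of that compartment, measured 747, 592 and 614 CPM in LPS libraries, against 129, 217 and 302 CPM in Vehicle libraries, which is 1.59 on the log2 scale (adjusted p = 0.00514, edgeR). Manf, a secreted stress factor, had 1.21 (adjusted p = 0.0253, edgeR). Both kept their calls with the GC trend removed, at 1.02 and 1.35, and with the block added Hsp90b1 missed the threshold (1.001, adjusted p = 0.0521). The count of the 14 called was 5 with the GC trend removed, 5 by DESeq2 and 1 with the GC trend removed and the block added, all higher. Of 8 other small heat shock proteins none was called in LPS against Vehicle by edgeR, DESeq2 or limma-voom, and 1 had an unadjusted p under 0.05.

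With 1 library left out, the counts called in LPS against Vehicle were 4 to 8 for the cytosolic co-chaperones (8 without LPS+TSLP replicate 1), 2 to 4 for the other inducible ones and 5 to 8 for TRiC and prefoldin. The mitochondrial chaperones and proteases gave 1 to 4 (1 without Vehicle replicate 1 or 2). The endoplasmic reticulum chaperones gave 1 to 3 (1 when any of Vehicle replicates 1 and 2 and LPS replicates 1 and 2 was left out), and the immediate early genes 3 to 9 (3 when any of Vehicle replicates 1 and 2 and LPS replicate 1 was left out).

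Across these 8 lists, immediate early genes included, none was called in LPS+TSLP against LPS by edgeR, DESeq2 or limma-voom, and 13 of their 128 tested genes had an unadjusted p under 0.05, against 8.1% of all tested genes. Over all tested genes 14.2% were called in LPS+TSLP against Vehicle (8.82% higher and 5.35% lower). There 10 of the 101 tested genes of the 7 chaperone and regulator lists were called (9.9%). These were Sirt1 (1.36), Cacybp (1.35), Chordc1 (1.33), Dnajc2 (1.69), Ppid (1.09), Dnajc7 (0.99), Vbp1 (1.05), Pfdn4 (1.18), Dnajc19 (1.05) and Hsp90b1 (1.21), all higher. Without Vehicle replicate 1 or 2 the count was 4. With the GC trend removed 3 of these 10 kept their calls, Sirt1 (0.64), Dnajc2 (1.37) and Dnajc7 (1.10). The other 7 lost theirs, with Cacybp at 0.69, Chordc1 at 0.0052, Ppid at 0.31, Pfdn4 at 0.49, Dnajc19 at 0.14, Hsp90b1 at 0.71 and Vbp1 turned to -0.48. In that fit 5 of the 101 genes were called, 3 higher and 2 lower (4.95%), against 8.24% of all tested genes.

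With the GC trend removed Hsp90aa1 kept its call in both comparisons with Vehicle (1.41 in LPS against Vehicle, adjusted p = 0.0151, and 1.19 in LPS+TSLP against Vehicle, adjusted p = 0.0384), and so did Hspe1 in LPS against Vehicle (1.61, adjusted p = 0.0187, edgeR).

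**Figure D4:**
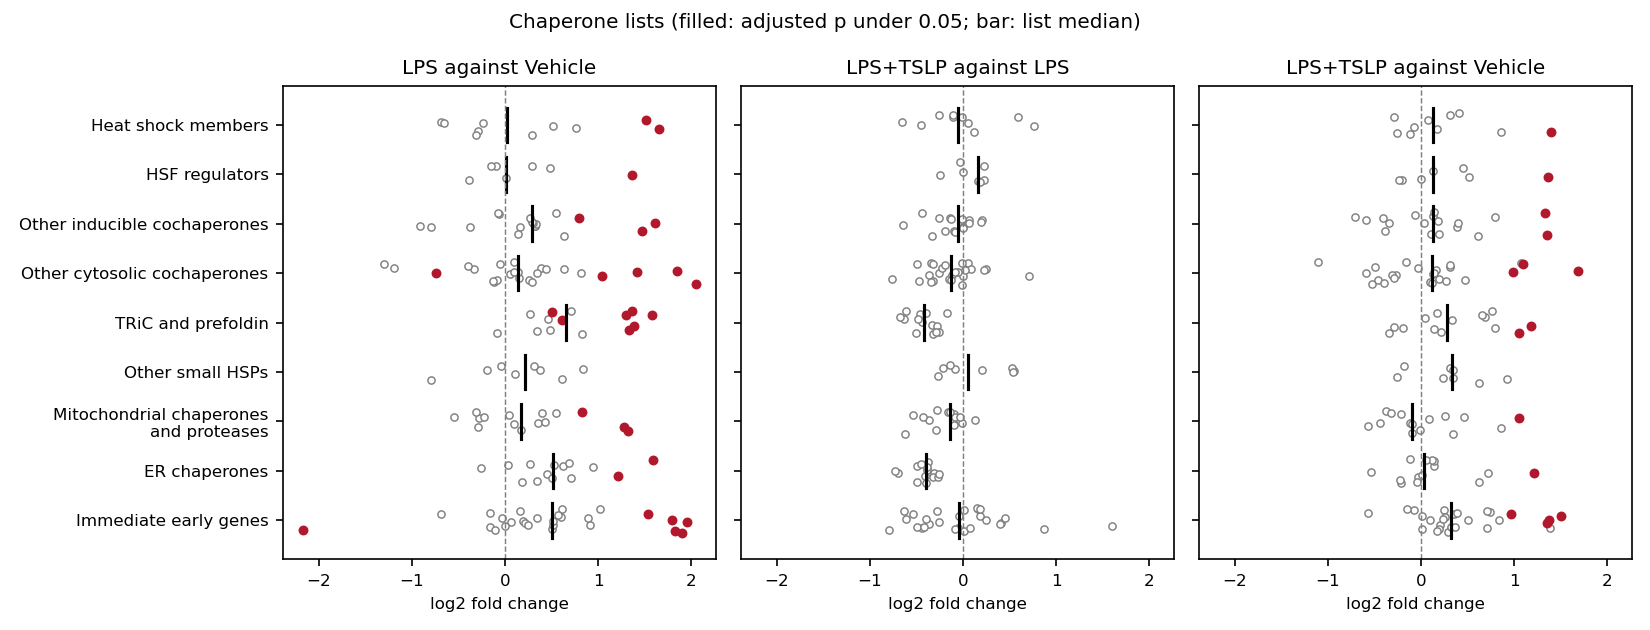
Log2 fold change of each tested gene in the members and 8 further lists, in LPS against Vehicle at left, LPS+TSLP against LPS in the middle and LPS+TSLP against Vehicle at right; filled points had an adjusted p under 0.05 (edgeR) and black bars are list medians. Filled points lie mostly to the right of 0 in both comparisons with Vehicle, and none is filled in LPS+TSLP against LPS.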

How the data were processed

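RNA-seq of mouse lung (10 libraries of total RNA extracted with Trizol) was analysed from the deposited table of raw counts per gene. Per the submitters' processing notes, tools included CASAVA, HISAT2 and HTSeq 0.6.0 with the build GRCm38 (mm10); annotation release, strand setting and the handling of reads with several matches are not given in the sources used here. No library pair held identical values.

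Counts were tested with edgeR 4.0.16 (R 4.3.3): TMM scaling, filterByExpr, 1 robust quasi-likelihood fit of 3 groups over 10 libraries, two-sided tests and Benjamini-Hochberg adjustment over 17139 genes at 0.05. SE is the log2 fold change divided by the root of F. TPM used exon lengths of GENCODE M21 (GRCm38). DESeq2 1.42.0, limma 3.58.1, other scalings and filters, GC trend removal (loess, span 0.3), a replicate block and leaving out libraries were alternatives. The procedure was tested on simulated data.

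Members and lists were chosen with earlier results of these data known. Named genes were the members, Hsf1, up to 4 genes a list with the smallest adjusted p in the comparison described, and the 8 genes nearest to the summed Hspa1 pair. Fosb and Bag6 in LPS against Vehicle, the levels of Fos, and the epithelial markers given for LPS+TSLP replicate 1 were named outside this rule after their values were seen.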

Additional observations from a re-analysis of the deposited data

Results flagged for a closer look

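Hspa1a stood at 30.5 CPM in LPS+TSLP replicate 1, far from the other LPS+TSLP libraries (8.61 to 11.97 CPM), with a gap of 0.847 of the group's range against a Dixon limit of 0.829. The endothelial marker list had a mean log2(CPM + 1) of 7.73 in the same library, against 8.31 to 8.42 in the other LPS+TSLP libraries (gap 0.837 of the range). These are 2 of 29 measures examined, all of them over the LPS+TSLP libraries. LPS and Vehicle libraries were not examined in this way. Chance alone sets a library apart in this way in about 1 in 20 independent measures. The 29 measures share the same libraries and are not independent, so that rate gives no expected count here. LPS+TSLP replicate 1 also had 13.1% mitochondrial counts. Its sum over 12 cardiac and skeletal muscle markers was 738 CPM, against 58.9 to 202 CPM in the other LPS+TSLP libraries. Vehicle replicate 2 had a muscle sum of 741 CPM and Hspa1a at 11.8 CPM. The part of mitochondrial counts and muscle markers in the Hspa1a value was not tested.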

How the results depend on the processing

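The count of members called in LPS against Vehicle (2) was 1 to 3 with 1 library left out and 0 at a threshold of 0.01. It fell to 1 without Vehicle replicate 1, Vehicle replicate 2 or LPS replicate 1. In LPS+TSLP against Vehicle (1) it was 0 to 1, at 0 without Vehicle replicate 1, Vehicle replicate 2 or LPS+TSLP replicate 2, 0 at 0.01, and 2 with replicate 1 of both LPS groups left out together, when Hspe1 passed. In LPS+TSLP against LPS it was 0 throughout. All genes called numbered 1661 to 5424 with 1 library left out and 1246 at 0.01 (LPS against Vehicle, 4273), 0 to 1 and 35 by DESeq2 (LPS+TSLP against LPS, 0), and 516 to 3493, 3925 by DESeq2, 1412 with the GC trend removed, 3842 without both replicates 1 and 527 at 0.01 (LPS+TSLP against Vehicle, 2428). The replicate block gave 2 members and 4493 genes in LPS against Vehicle, 0 and 0 in LPS+TSLP against LPS, and 1 and 3454 in LPS+TSLP against Vehicle, and the block changed no member's call. Replicate numbers were not taken as pairing: the deviations of same-numbered libraries correlated between -0.34 and 0.40, over 0.1 in 3 of 9 pairs. Hspa1a, the member with the fewest reads, had 111 to 477 counts a library.

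Of 696 member values under alternatives 32 changed sign, none of them of a called gene and none in LPS against Vehicle. In LPS+TSLP against LPS these were Bag3 (0.040 with upper quartile factors, 0.029 on library size alone), Hsph1 (-0.10 by limma-voom) and, without both replicates 1, Hspa1b (-0.37), Hsph1 (-0.68), Dnajb1 (-0.10) and Hspb1 (0.23). With 1 library left out the ranges there were Bag3 -0.31 to 0.23, Dnajb1 -0.03 to 0.20, Hspa1b -0.10 to 1.34, Hspb1 -0.32 to 0.11 and Hsph1 -0.54 to 0.38. In LPS+TSLP against Vehicle they were Hspa1a (-0.061 by limma-voom, -0.015 with the pair's counts summed, -0.48 without both replicates 1), and with the GC trend removed Hspa1b (0.089, 0.13 with the block) and Dnajb1 (0.068, 0.10 with the block). Ranges with 1 library left out were Hspa1a -0.50 to 0.48, Hspa1b -0.75 to 0.49, Hspa8 -0.0090 to 0.39, Hspd1 -0.0028 to 0.47 and Hsf1 -0.061 to 0.084.

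Alternatives for list genes were chosen after seeing the data. With the GC trend removed, without and with the block, Hsf1 had 0.090 and 0.069, Vbp1 -0.27 and -0.31 and Yme1l1 -0.30 and -0.30 in LPS against Vehicle, Chordc1 -0.066 with the block, and Vbp1 -0.48 and -0.58 in LPS+TSLP against Vehicle. Hsf1 there had -0.029 on library size alone, -0.0067 with no filter and -0.0066 by limma-voom. Counts over lists moved by over 1.5 times in 174 of 1152 fits. The causes were not tested.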
